A study of Mus musculus with 18 samples.

Results

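The effect of the bromodomain inhibitor (+)-JQ1 on bone marrow-derived macrophages (BMDMs) in the absence of any inflammatory stimulus was examined in 6 of the 18 RNA-seq libraries of the series. These were all 3 libraries of cells given 500 nM (+)-JQ1 for 12 h and then PBS for a further 4 h, and all 3 libraries of cells left untreated over the same 16 h. All cells came from 12-week-old male Il10-/- mice on the C57BL/6J background, 3 animals in all. By the replicate numbers, each animal was taken to have given 1 library to each group. Marrow was grown for 6 days in medium conditioned by L929 cells, a fibroblast line that releases the macrophage growth factor CSF-1. Both groups carry the Il10-/- label, so a wild-type response could not be read from them. The controls are labelled untreated, so an effect of the solvent of (+)-JQ1 cannot be told apart from an effect of the compound. The other 12 libraries hold cells given IL-10, LPS, LPS with IL-10 or LPS with (+)-JQ1, 3 of each, and the 6 given LPS alone or LPS with (+)-JQ1 were used for 1 comparison at the end.

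BET proteins, BRD2 and BRD3 among them, carry paired bromodomains that bind acetylated lysines on histones, and they help bring the elongation kinase P-TEFb (CDK9 with a cyclin T) to promoters and enhancers. (+)-JQ1 occupies the acetyl-lysine pocket and displaces BET proteins from chromatin, and genes served by large clustered enhancers, which in macrophages include many identity and inflammatory genes, are known to be sensitive to it. A part of P-TEFb is held inactive by HEXIM1 on the small nuclear RNA named 7SK, and HEXIM1 mRNA is widely used as a marker of exposure to BET inhibitors.

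The 6 libraries held between 6781952 and 16434015 expected counts, and the untreated library of replicate 2 was the shallowest. Levels below are counts divided by the DESeq2 size factor of the library (normalised counts), and 3 counts corresponded to 2.01 to 5.07 normalised counts. A principal component analysis of the 1000 most variable genes placed 92.9% of the variance on a first component that separated the groups and 4.2% on a second that set untreated replicate 1 apart from the others. The defining macrophage markers were present in every library, with a summed level of 27045 to 28879 TPM (a length-corrected abundance) in untreated and 31441 to 31717 TPM in (+)-JQ1-treated cells. Lyz2 made up most of this sum, with a mean of 18407 TPM in untreated and 24665 TPM in treated cells. Of these 12 markers 3 rose (Cd14, Mertk and Lyz2) and 8 fell, among them Csf1r, Itgam and Aif1. Markers of other cell types were low. Neutrophil markers summed to 71.5 to 128 TPM in untreated and 11.3 to 21.4 TPM in treated cells, with Ly6g at 0 throughout and 4 of the 7 tested lower, and dendritic cell markers to 77.4 to 101 TPM and 42.2 to 47.5 TPM, nearly all of it Itgax. T and NK cell, B cell, erythroid, mast cell and stromal lists each summed to at most 10.8 TPM in any library. The part that such cells take in the results was not tested, and in bulk RNA fewer cells of a type and less RNA per cell cannot be told apart. Il10 itself stood at 37.0, 27.1 and 33.5 normalised counts in untreated and 60.5, 43.4 and 34.8 in treated cells, ranges that overlap (DESeq2 Wald test, adjusted p = 0.0987). Whether these reads fall in the deleted part of the gene is not given in gene-level counts, so they do not check the label.

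(+)-JQ1 changed a large part of the resting transcriptome. Of 24485 genes, 8746 had no read in any of the 6 libraries and 13686 entered the test, of which 6248 (45.7%) passed at an adjusted p of 0.05 (DESeq2 Wald test with Benjamini-Hochberg adjustment). Of these, 3001 were higher (21.9% of genes tested) and 3247 lower (23.7%), and 6187 (99.0%) moved in the same direction in all 3 same-numbered pairs. The calls were made from these same libraries, so that last share is not a separate check of them. The falls were the larger changes. The median called gene rose by 0.49 or fell by 0.93 on the log2 scale. Among genes that changed more than 2-fold, 374 were higher (2.73% of genes tested) and 1534 lower (11.2%). Beyond 4-fold there were 67 higher and 658 lower genes, and beyond 16-fold 9 and 161.

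The division into higher and lower genes depends on what the libraries are scaled to. The counts give relative levels, and 4 abundant RNAs (Ftl1, Rn45s, Malat1 and Ctsb) together took 13.4% ± 0.961 of all counts in untreated and 19.3% ± 0.967 in treated cells (SD, n = 3). Scaled by median ratios, as above, 48.0% of the called genes were higher and the median log2 fold change of all tested genes was -0.001. Scaled by total counts, 1670 genes were higher and 4568 lower, so 26.8% of the calls were higher, and the median of all genes was -0.18. On the TPM scale the median was -0.16 and 24.6% of the calls were higher. Small rises below are therefore relative to the median gene, and no gene called under more than 1 of these scalings changed direction. The plot of fold change against level shows that large falls reach into the abundant genes, whereas large rises are few.

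**Figure D1:**
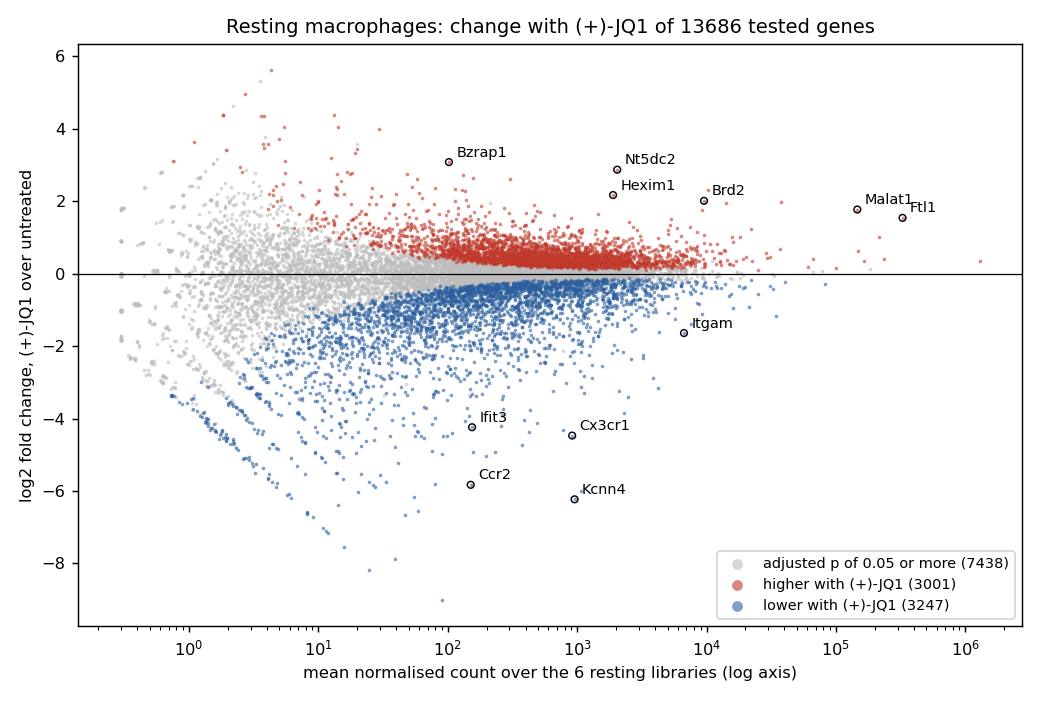
Log2 fold change of (+)-JQ1-treated over untreated resting BMDMs (vertical axis) against the mean normalised count over the 6 libraries (horizontal log axis), with 1 point for each of the 13686 genes tested. Red points are the 3001 genes called higher and blue points the 3247 called lower, grey points did not pass, and 1 gene with a fitted value under -9 is drawn at that edge. Kcnn4 and Ccr2 lie near -6 and Bzrap1 near 3.

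Among genes with a mean of at least 100 normalised counts, the 12 largest rises ran from 2.01 to 3.08 on the log2 scale, with an adjusted p of at most 4.12e-20. Bzrap1, which encodes a RIM-binding protein, led with 20.1 to 23.1 normalised counts in untreated and 170 to 204 in treated cells (log2 fold change 3.08, SE 0.23, adjusted p = 5.3e-40). Nt5dc2 followed at a far higher level, with 501, 496 and 483 counts against 3630.5, 3580 and 3562 (2.87, SE 0.07). In both genes every treated library was above every untreated one and the spread within a group was small. Arg2, the mitochondrial arginase, had 29.3, 44.0 and 32.9 counts in untreated and 225, 257 and 200 in treated cells (2.72, SE 0.29). Cd320, the receptor that takes up transcobalamin-bound vitamin B12, rose 2.65 (SE 0.18), and Sesn3, a sestrin that restrains mTORC1, rose 2.31 (SE 0.18). The most abundant of the 12 were Kctd12, an auxiliary subunit of GABA-B receptors, at 3480 ± 230 counts in untreated and 17154.5 ± 920 in treated cells (SD, n = 3), and Brd2. Larp1b, a La-related RNA-binding protein, and Ahi1, a protein of the ciliary transition zone, rose 2.34 and 2.28. Mt2, Hexim1, Hspa1b and Brd2 completed the set and are described with their families. None of the 12 overlapped between the groups, which their choice by size and direction in these same libraries makes likely.

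Of the 12 largest falls among such genes, the 11 reported here ran from -4.24 to -6.23, all larger than the largest rise. Kcnn4 (chr7:25155282-25170228 in mm9), the calcium-activated potassium channel of blood cells, had 2040 counts in the first untreated library and 1823 and 1798.5 in the others, against 31.1, 22.7 and 21.1 after (+)-JQ1. This is a 75.2-fold lower level (log2 fold change -6.23, SE 0.20, adjusted p = 1.35e-203). They included the chemokine receptors Ccr2, Cx3cr1 and Ccr1 and the C-type lectins Clec4a1 and Clec4n. Siglec1, the sialoadhesin of tissue macrophages, fell from 1618, 1422 and 1369.5 counts to 54.5, 75.9 and 89.8 (-4.33, SE 0.15). F13a1, the A subunit of coagulation factor XIII, fell from 960, 573 and 914 to 51.0, 27.6 and 39.4 counts (-4.37, SE 0.36). Sla, an adaptor that dampens antigen and growth factor receptor signals, fell by 4.92, as did Clec4a1, and Nptx1, a pentraxin first described in neurons, by 5.04. Relative to the mean, the untreated libraries of Ifit3 differed most among the 11. They held 584 counts in replicate 1 and 132 and 163 in the others, all above the 11.8 to 20.1 counts of treated cells. Without untreated replicate 1 the log2 fold change of Ifit3 was -3.26. Clec4n (1047, 524 and 607 counts) and Ccr1 (284, 145 and 183) were also highest in that library. Without it their log2 fold changes were -4.35 and -4.08.

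**Figure D2:**
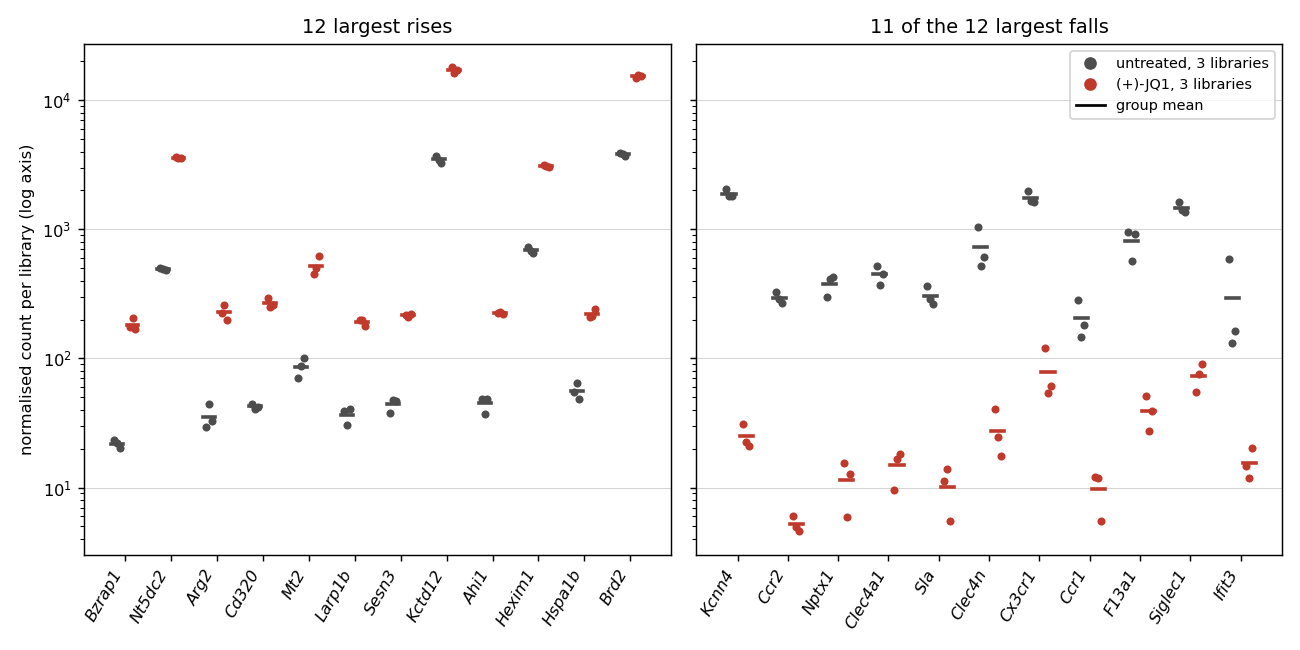
Normalised counts (vertical log axis) in each of the 3 untreated (grey) and 3 (+)-JQ1-treated (red) libraries for the 12 largest rises and 11 of the 12 largest falls, with a bar at each group mean. The groups do not overlap for any of these genes, which were chosen for large changes in these libraries. Ifit3 has 1 untreated library at 584 counts above the other 2.

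The genes that encode the targets of (+)-JQ1 and their partners moved unevenly. Of 14 BET proteins and P-TEFb regulators tested, 9 rose and 2 fell, with a median log2 fold change of 0.36, against 21.9% higher and 23.7% lower over all genes. Hexim1 (chr11:102977639-102981039) had 724, 685 and 660 counts in untreated and 3157, 3116 and 3038 in treated cells, a 4.50-fold rise (log2 fold change 2.17, SE 0.09, adjusted p = 8.17e-129). Brd2 (chr17:34248965-34259262) rose 4.02-fold, from 3927, 3822 and 3681.5 to 14890, 15673 and 15385 counts (2.01, SE 0.06). Brd3, another BET gene, had 684 to 690 counts in untreated and 677 to 739 in treated cells, which overlap (0.05, SE 0.09, adjusted p = 0.731), and its sign turned negative (-0.13) under total-count scaling. Per unit of length, Brd2 mRNA stood at 122 TPM ± 4.81 and Brd3 at 18.6 ± 0.609 in untreated cells (SD, n = 3), and at 431 ± 11.3 and 16.6 ± 0.962 in treated cells. Brd2 was the more abundant in both groups.

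Within P-TEFb, the kinase Cdk9 rose by 0.21 (adjusted p = 0.0229), a call that was lost under total-count scaling and on the TPM scale, where it stood at -0.0027, and the cyclins Ccnt1 and Ccnt2 by 0.46 and 0.53. Of the proteins that hold P-TEFb on the 7SK RNA, the capping enzyme Mepce rose by 0.87 (SE 0.09, adjusted p = 3.01e-22), from 684 to 744 counts in untreated to 1264 to 1350 in treated cells, whereas Larp7 fell by 0.64 (SE 0.11, adjusted p = 1.26e-07). Hexim2, the paralogue of Hexim1, was near the detection limit at 9.26, 6.76 and 14.8 counts in untreated and 4.32, 2.96 and 1.83 in treated cells, and its fall by 1.81 (adjusted p = 0.0158) was lost when the 6 libraries were fitted alone. In the super elongation complex, which carries active P-TEFb, Aff4 rose by 0.44 and Ell by 0.39, a call that Ell lost under total-count scaling (adjusted p = 0.146) and without untreated replicate 1 (adjusted p = 0.0755). Aff1 (0.06, adjusted p = 0.539) and Ell2 (-0.11, adjusted p = 0.399) did not pass and their groups overlapped.

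**Figure D3:**
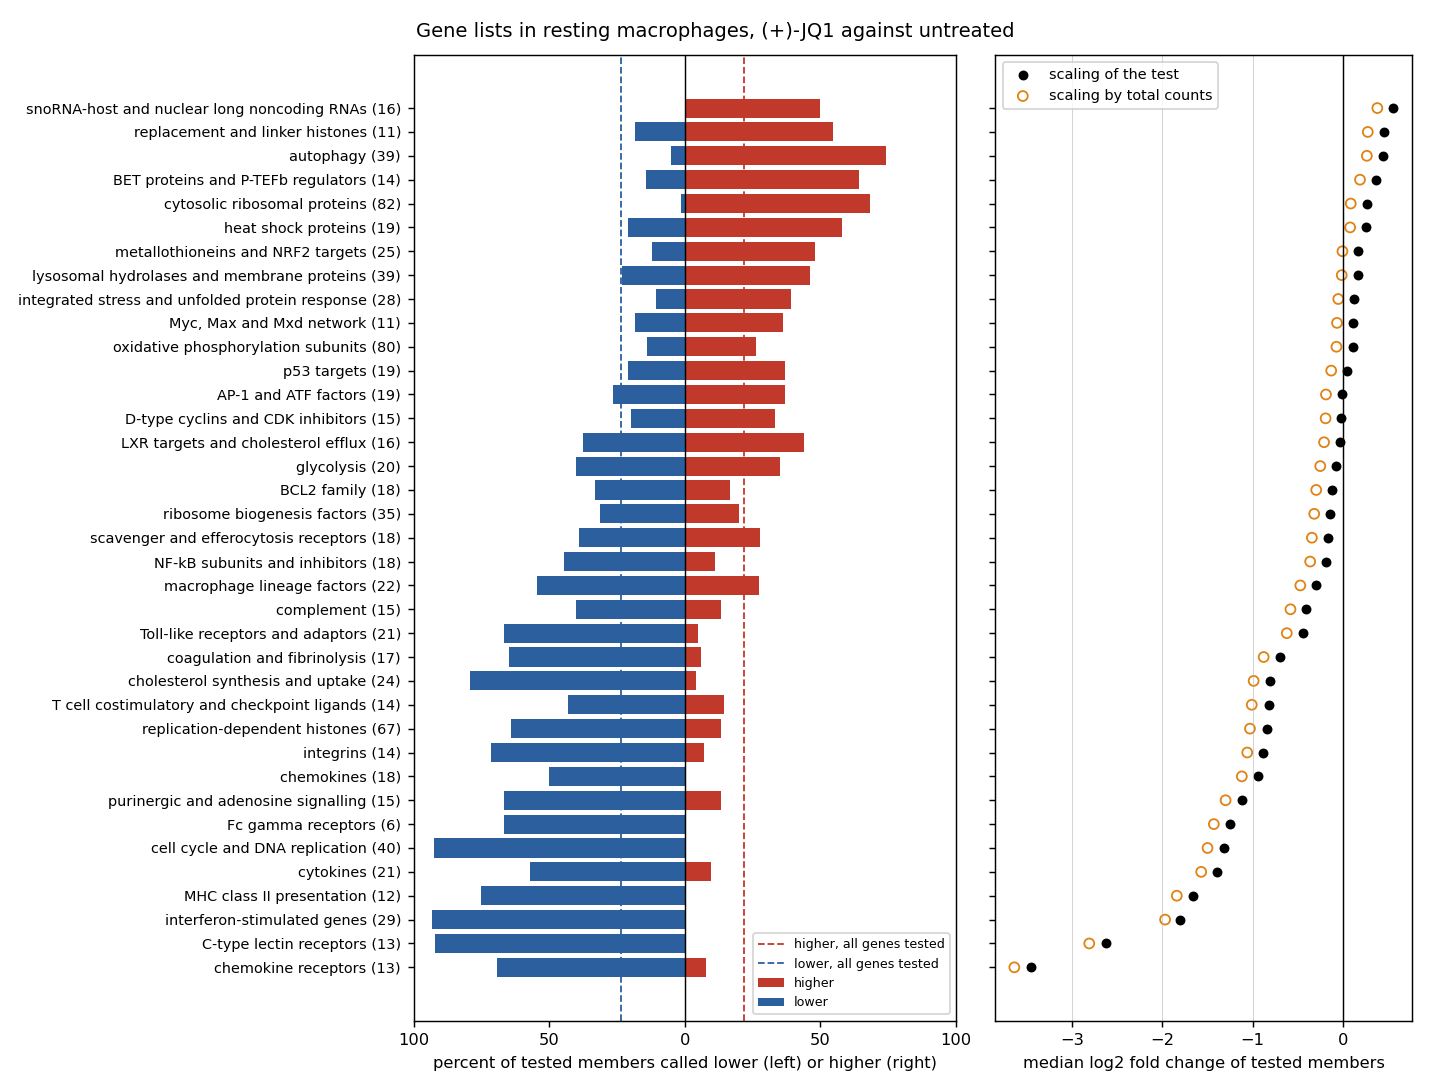
Each of 37 gene lists, with the number of members tested in brackets. The left panel gives the percent of tested members called lower (blue) or higher (red) with (+)-JQ1, with dashed lines at 23.7% and 21.9% for all genes tested. The right panel gives the median log2 fold change of the members under the scaling of the test (black) and under scaling by total counts (open circles). Chemokine receptors, C-type lectins and interferon-stimulated genes lie lowest, from -3.46 to -1.80 (interferon-stimulated genes at -0.94 without untreated replicate 1, above MHC class II genes at -1.46), and cell cycle genes hold a similar share of lower members.

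Receptors by which macrophages sense chemokines and microbes were among the genes that fell furthest. Of 13 chemokine receptors, a list that also holds the receptors C5ar1, Fpr1 and Fpr2 for other attractants, 9 fell and 1 rose. The median was -3.46, or -2.65 without untreated replicate 1, against -0.001 for all genes. Ccr2, the receptor that brings monocytes out of the marrow, had 329, 291 and 268 counts in untreated and 6.05, 4.93 and 4.58 in treated cells (-5.83, SE 0.41, adjusted p = 8.31e-45). Cx3cr1, the fractalkine receptor, had 1990, 1646 and 1623 against 121, 54.2 and 61.4 (-4.47, SE 0.22). Treated libraries of Ccr2 lay close to the level that 3 counts represent. Cxcr4, the receptor for the marrow-retention chemokine CXCL12, was the 1 member that rose (0.52, SE 0.10, adjusted p = 7.55e-07), from 3893, 4727 and 4255 counts in untreated to 5951, 6816.5 and 5719 in treated cells.

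Several of these receptors are neighbours on chromosome 9. The stretch chr9:123587557-124028296 (mm9) holds 10 protein-coding genes, of which 9 were tested. It was looked at after the values were seen, so its counts are a description with no test. The 4 genes at its distal end, Ccr1, Ccr1l1, Ccr3 and Ccr2, all fell. Ccr3 went from 109 ± 23.5 to 1.52 ± 0.462 counts (SD, n = 3), with at most 2 raw counts in any treated library, and Ccr1l1 from 4.65 ± 1.80 to 0. Ccr1 fell by 4.39. The 5 genes before them (Ccr9, Lztfl1, Fyco1, Cxcr6 and Xcr1) did not pass, and Fyco1, an autophagosome transport adaptor that lies between receptor genes, had 628 ± 54.1 and 678 ± 13.1 counts. Of these 5, Ccr9, Cxcr6 and Xcr1 had fewer than 10 counts in either group, so a change in them would have been hard to detect.

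C-type lectin receptors bind sugars on fungi, bacteria and dead cells. Of 13 tested, 12 fell and none rose, with a median of -2.63. Clec4a1 fell from 520, 370 and 450 to 9.51, 16.8 and 18.3 counts (-4.92, SE 0.31). Clec4n (dectin-2) fell from 1047, 524 and 607 to 40.6, 24.6 and 17.4 (-4.72, SE 0.29), and Clec4a2 from 830 to 1019 counts to 51.9 to 55.2 (-4.11, SE 0.20). All treated libraries of these genes were far below all untreated ones, which their choice by size in these same libraries makes likely. These genes also lie side by side. The stretch chr6:122871866-123239889 (mm9), likewise chosen after the values were seen, holds 9 protein-coding genes, of which 8 were tested and 7 fell, Clec4a4 being the exception with 2.11 ± 2.02 counts in untreated cells. The falls were smaller at 1 end, where Clec4d fell by 2.17 and Clec4e (mincle) by 2.09, than in the others, where they ran to 5.24 for Clec4b1. These genes are similar in sequence, and counts shared between them were divided by estimation.

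**Figure D4:**
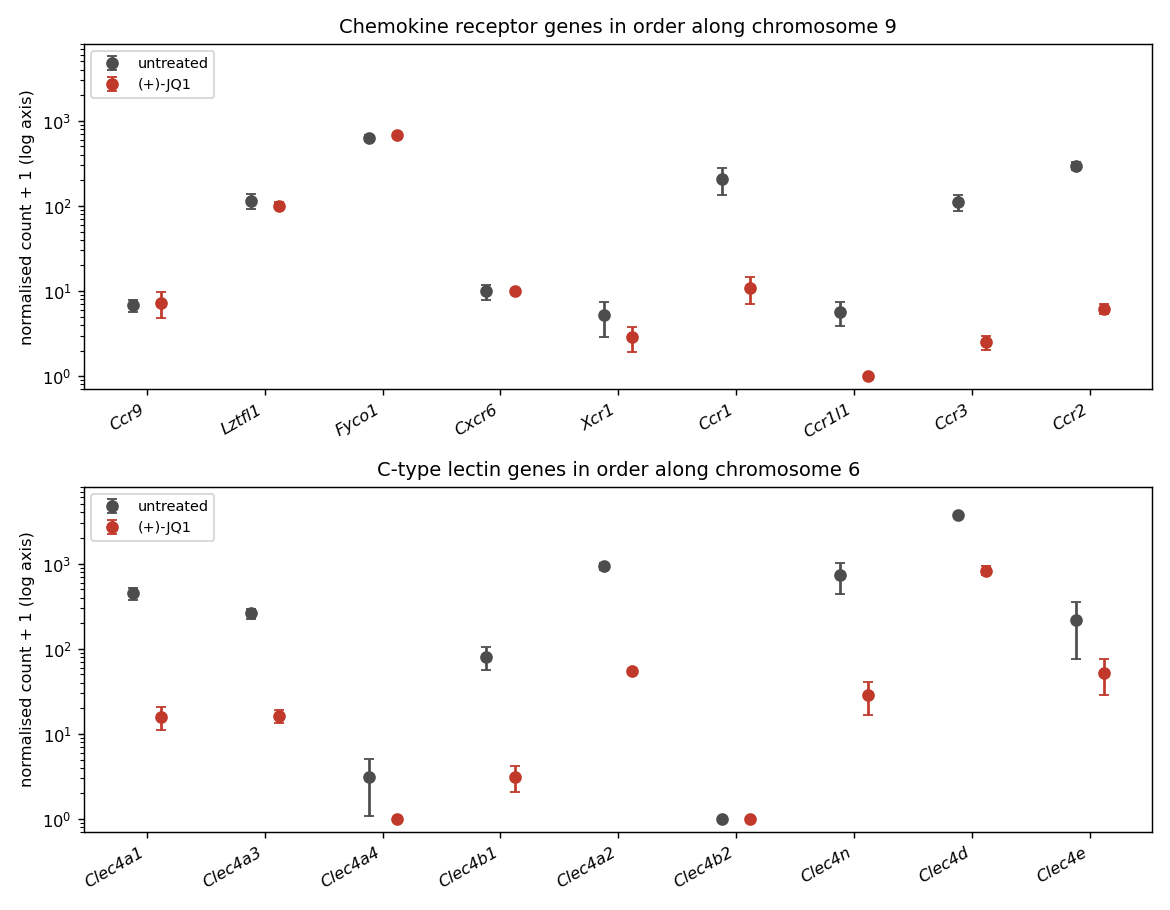
Normalised counts plus 1 (vertical log axis) as mean ± SD of 3 libraries for the genes of 2 clusters in their order along the chromosome, untreated in grey and (+)-JQ1-treated in red. In the upper panel Ccr1 to Ccr2 fell while Ccr9 to Xcr1 did not pass, and in the lower panel 7 of 8 tested Clec4 genes fell.

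The promoter of Clec4a1 is shown because its gene has one of the largest falls and because its family moved together. It is the stretch of 250 bases before the RefSeq start in GRCm38.p6, chr6:122921598-122921847, plus strand, and capitals mark the letters GAGGAA, the core of sites for the myeloid factor PU.1, or their complement. These letters stood in the 250 bases before a start of 10 of the 11 tested C-type lectin genes with a listed promoter, and of 25.9% of 27025 genes with one. The searched letters occur often by their shortness, and a match is not a site.
Clec4a1: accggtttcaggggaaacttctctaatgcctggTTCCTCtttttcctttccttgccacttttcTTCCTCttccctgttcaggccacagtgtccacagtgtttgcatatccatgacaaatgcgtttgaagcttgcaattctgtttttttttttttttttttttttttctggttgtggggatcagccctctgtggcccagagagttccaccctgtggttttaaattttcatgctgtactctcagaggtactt

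Receptors for antibody and for microbial products fell more often than they rose. Of 6 Fc gamma receptor genes, 4 fell and none rose (median -1.25). Fcgr1, the high-affinity receptor, fell 9.77-fold, from 2473, 1921 and 1790 to 206, 208 and 220 counts (-3.29, SE 0.12, adjusted p = 1.57e-171), and the inhibitory receptor Fcgr2b by 1.44 and Fcgr3 by 1.06. Of 21 Toll-like receptors and adaptors, 14 fell and 1 rose (median -0.44). Tlr1 fell by 3.19, Tlr7 by 2.46 and Tlr13, a sensor of bacterial ribosomal RNA, by 1.57, the last from 4002 ± 346 to 1344 ± 111 counts. The exception was Cd14, the coreceptor for LPS, which rose from 7015, 5622 and 6304 to 9457, 9804 and 10433 counts (0.65, SE 0.08, adjusted p = 3.36e-14).

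Genes for antigen presentation and adhesion also fell. Of 12 MHC class II genes, 9 fell and none rose (median -1.66). H2-Ab1 had 638, 367 and 422 counts in untreated and 77.0, 50.3 and 87.0 in treated cells (-2.74, SE 0.23), and H2-Eb1 and H2-DMb1 fell by 2.64 and 2.44. Of 14 integrins, 10 fell and 1 rose (median -0.88). Itgam (CD11b) fell 3.11-fold, from 10137 ± 813 to 3261 ± 136 counts, Itgal by 2.54 and Itga4 by 1.22. Among 14 ligands that costimulate or restrain T cells, 6 fell and 2 rose. Havcr2 (TIM-3) fell by 3.92, from 232, 269 and 316 to 19.0, 13.8 and 21.1 counts, and Cd274 (PD-L1) by 1.64, whereas Vsir (VISTA) rose by 0.36 and Pvr by 0.61.

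Interferon-stimulated genes, which encode antiviral effectors kept at a low tonic level in resting macrophages, showed the highest share of falls with the lectins and the cell cycle genes. Of 29 tested, 27 fell and none rose, with a median of -1.80. Rtp4 had 661, 279 and 363 counts in untreated and 58.8, 73.9 and 75.1 in treated cells (-2.66, SE 0.22), and Oas2 had 452, 276 and 239 against 28.5, 57.2 and 42.1 (-2.93, SE 0.23). Untreated replicate 1 was the highest untreated library for both, as for Ifit3, and its animal or culture cannot be told apart from the library. Without it, 26 of 30 tested members fell and 1 rose, and the median was -0.94. Oas genes are near copies of each other, so their single values are uncertain.

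The promoters of Ifit3 and its neighbour Ifit1 are shown because the family moved together and both hold the letters bound by interferon-activated factors. They are the 250 bases before the RefSeq starts in GRCm38.p6, chr19:34583279-34583528 and chr19:34640639-34640888, both on the plus strand, with a pair of GAAA and 2 bases of any kind between them, or the complement, in capitals. These letters were found on either strand before a start of 9 of the 20 tested members with a listed promoter and of 3.46% of the 27025 genes.
Ifit3: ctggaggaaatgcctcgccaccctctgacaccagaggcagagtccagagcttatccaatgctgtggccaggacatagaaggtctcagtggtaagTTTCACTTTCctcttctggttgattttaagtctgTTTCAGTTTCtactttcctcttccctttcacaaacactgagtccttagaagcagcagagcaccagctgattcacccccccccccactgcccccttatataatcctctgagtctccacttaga
Ifit1: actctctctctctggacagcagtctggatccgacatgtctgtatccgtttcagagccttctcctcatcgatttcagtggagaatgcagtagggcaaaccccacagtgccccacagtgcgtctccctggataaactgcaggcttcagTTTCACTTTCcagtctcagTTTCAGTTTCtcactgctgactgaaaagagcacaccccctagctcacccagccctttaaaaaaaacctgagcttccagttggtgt

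Secreted proteins fell on balance. Of 21 cytokines, 12 fell and 2 rose (median -1.39). Igf1, a growth factor, fell from 11132, 10310 and 11445 to 4621, 3864 and 4059 counts (-1.39, SE 0.12), Il16 by 2.05 and the angiogenic factor Vegfa by 1.27. Tgfb1 rose from 5569 ± 192 to 9333 ± 165 counts (0.75, SE 0.10, adjusted p = 3.1e-12), and Il15 by 0.56 (adjusted p = 0.0505 under total-count scaling). Of 18 chemokines, 9 fell and none rose (median -0.94), with Cxcl14 lower by 2.50 and Cxcl16 by 1.53. Of 17 coagulation and fibrinolysis genes, 11 fell and 1 rose. The urokinase gene Plau fell 10.6-fold, from 4744, 3966 and 4740 to 444.5, 393 and 426 counts (-3.41, SE 0.14), and its receptor Plaur by 1.42.

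Of 15 complement genes, 6 fell and 2 rose. Cfp (properdin), which stabilises the alternative pathway convertase, fell by 1.11 and C1qb rose by 0.34, a call lost under total-count scaling (adjusted p = 0.103), where no complement gene rose. The fall of C3 by 1.52 (adjusted p = 0.0313) rested on untreated replicate 1, with 1966 counts against 304 and 418 in the other untreated libraries and 226 to 427 in treated cells. Without that library its log2 fold change was -0.22 (adjusted p = 0.748). Of 15 genes of purine signalling, 10 fell and 2 rose (median -1.12). The ectonucleotidase Entpd1 (CD39), which removes extracellular ATP, fell 7.34-fold, from 1856, 2549 and 2477 to 302, 305 and 331 counts (-2.87, SE 0.13), whereas adenosine kinase (Adk) rose by 1.35.

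Transcription factors moved both ways. Of 22 factors of the macrophage lineage, 12 fell and 6 rose. Egr2, an early driver of macrophage fate, fell from 333, 316 and 306 to 63.1, 68.0 and 59.5 counts (-2.33, SE 0.17), Tfec by 2.35 and the oxysterol receptor Nr1h3 (LXRα) by 2.21. Egr1, a factor of the same family, rose instead, from 168, 220 and 205 to 719, 738 and 732 counts (1.90, SE 0.11, adjusted p = 2.4e-67), as did Klf2 by 1.39 and Cebpd by 0.87. In the Myc network, Myc fell from 350, 233 and 280 to 84.8, 70.0 and 93.4 counts (-1.81, SE 0.19, adjusted p = 5.59e-20), and Mxd1 and Mxi1, which oppose Myc at its binding sites, rose by 0.91 and 0.83. In all, 4 of the 11 members rose and 2 fell, and 3 rose and 4 fell under total-count scaling.

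Members of the AP-1 family likewise parted. Jun rose from 1786 ± 54.9 to 3551 ± 95.9 counts (0.99, SE 0.07), with Jund at 0.98 and Fosl2 at 0.81, whereas Fos fell from 2572, 1806 and 1876 to 695, 656 and 691.5 (-1.62, SE 0.15). Of 19 AP-1 and ATF genes, 7 rose and 5 fell, shares of 36.8% and 26.3% against 21.9% and 23.7% of all genes, and under total-count scaling 5 rose and 8 fell. Of 18 NF-kB subunits and inhibitors, 8 fell and 2 rose. Bcl3 fell by 1.49 and the deubiquitinase Tnfaip3 (A20) by 1.05. Nfkbiz, which encodes the nuclear inhibitor-like protein IκBζ, rose from 647, 394 and 418 to 1399, 984 and 1260.2 counts (1.31, SE 0.18).

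Genes of DNA replication and division fell together. Of 40 tested, 37 fell and none rose (median -1.32). Uhrf1, which copies DNA methylation at replication forks, had 222, 210 and 289 counts in untreated and 48.4, 50.3 and 69.6 in treated cells (-2.11, SE 0.20). Thymidine kinase Tk1 fell by 1.99 and the helicase subunit Mcm5 by 1.82. Of 15 cyclin D and CDK inhibitor genes, 3 fell and 5 rose, shares of 20% and 33.3% against 23.7% and 21.9% of all genes. Under total-count scaling 6 fell and 3 rose. In the main test Ccnd1, the cyclin D induced by CSF-1, fell from 989, 808 and 1040 to 167, 158 and 196 counts (-2.45, SE 0.14). The others that fell were Rbl1 (-0.92) and Cdkn2c (-0.90), while Cdkn1a (p21) rose by 0.45 and Ccnd3 by 0.64.

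Histone genes divided along their expression class. The replication-dependent genes, made in S phase as mRNAs without a poly(A) tail, are retained by a library of ribosome-depleted total RNA. Of 67 tested, 43 fell and 9 rose, with a median of -0.84. Hist1h2bb fell by 2.48, Hist1h2ao by 2.26 and Hist1h2ab by 2.13, the last from 606, 631 and 728 to 112, 156 and 181 counts. Hist1h4i and Hist1h2bc rose by 1.80 and 1.16. Of 11 replacement and linker histones, which are made outside S phase from polyadenylated mRNA, 6 rose and 2 fell (median 0.45). H3f3b, a gene for histone H3.3, rose 3.37-fold, from 4350, 4024 and 4214 to 14749, 13149 and 14631 counts (1.75, SE 0.05, adjusted p = 1.19e-243), and the linker histone H1f0 rose 2.30-fold (852, 830 and 886 against 2046, 1868 and 1986 counts). The 2 that fell included Cenpa, the centromeric histone H3, whose groups overlapped and whose call was lost without any 1 of 4 libraries. Single replication-dependent genes share much of their sequence and their values are uncertain.

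Among metabolic genes, those of cholesterol synthesis and uptake mostly fell. Of 24 tested, 19 fell and 1 rose (median -0.81). Fdps, which makes farnesyl diphosphate, had 422, 320 and 308 counts in untreated and 106, 108 and 117 in treated cells (-1.66, SE 0.17, adjusted p = 1.17e-20). Acat2 was the exception and rose from 57.9, 67.7 and 81.8 to 198, 182 and 218 (1.52, SE 0.17). On the efflux side 7 of 16 LXR targets rose and 6 fell, but 3 rose and 8 fell under total-count scaling. Abca1 and Abcg1, which export cholesterol to lipoproteins, rose by 0.88 and 0.77, Abca1 from 11306 ± 412 to 20832.5 ± 1472.5 counts, although the LXR gene Nr1h3 itself fell. In receptors for debris, 5 of 18 rose and 7 fell, and 3 rose and 8 fell under total-count scaling. Mertk, the receptor for dying cells, rose from 1534, 1899 and 1668.5 to 3207, 3532 and 3134 (0.96, SE 0.09), with its ligand Gas6 (0.77), and Axl, a receptor of the same family, fell from 2506, 2155 and 2059 to 765, 687 and 854 (-1.54, SE 0.12).

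Autophagy genes rose in number but by smaller amounts. Of 39 autophagy genes, 29 rose and 2 fell (median 0.44), and under total-count scaling 21 rose and 4 fell (median 0.27), so this direction did not depend on the scaling. Ulk2, a kinase that starts the process, rose from 1269 to 1345 counts to 2333.5 to 2500.2 (0.89, SE 0.07), and Atg12, a ubiquitin-like conjugate of the growing membrane, by 1.00 (SE 0.08). Tfeb, a regulator of lysosomal genes, fell (-0.76, SE 0.14). Of 39 lysosomal hydrolases and membrane proteins 18 rose and 9 fell, but under total-count scaling 12 rose and 13 fell, and the median moved from 0.16 to -0.01. Ctsb (cathepsin B) rose from 135658.5, 144664 and 144666.5 to 273107, 290346 and 298610 counts (1.02, SE 0.05), 1.26% ± 0.051 of all counts in untreated and 2.27% ± 0.0913 in treated cells. Gaa and Ctsc fell by 1.06 and 0.91, Ctsc by 0.57 without untreated replicate 1. Glycolysis was mixed, with 7 of 20 genes higher and 8 lower (5 and 10 under total-count scaling), among them Pfkl (1.23) and Ldha (-0.70). Of 80 oxidative phosphorylation subunits, 21 rose and 11 fell, and 5 rose and 20 fell under total-count scaling, so no direction can be given for them.

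Metal- and oxidant-responsive genes held the RNA that was, per length, the most abundant of those that rose. Of 25 metallothioneins and targets of the oxidant-sensing factor NRF2, 12 rose and 3 fell, a median of 0.17 that became -0.01 under total-count scaling. Ftl1 (chr7:52713314-52715254), the ferritin light chain that stores iron, had 161641.5, 177319 and 164263 counts in untreated and 452882, 509497 and 498102 in treated cells (1.54, SE 0.10, adjusted p = 1.07e-54), which is 1.49% ± 0.0514 and 3.84% ± 0.182 of all counts. Mt2 had 70.2, 88.0 and 99.9 counts against 447, 505 and 620 (2.61, SE 0.22), and its neighbour Mt1 had 635, 736 and 735 against 1958, 2294 and 2400 (1.66, SE 0.16). All treated libraries exceeded all untreated ones for these genes, which their choice by size of change in these same libraries makes likely. Osgin1 fell by 0.92.

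The promoters of Mt2 and Mt1 are shown as those of neighbouring genes that rose together, over the 250 bases before their RefSeq starts in GRCm38.p6, chr8:94172368-94172617 and chr8:94178839-94179088 on the plus strand. Capitals mark TGCACNC or its complement, the core of metal response elements. It was found in 4 of the 20 tested members of the list with a listed promoter and in 11.8% of all 27025 genes.
Mt2: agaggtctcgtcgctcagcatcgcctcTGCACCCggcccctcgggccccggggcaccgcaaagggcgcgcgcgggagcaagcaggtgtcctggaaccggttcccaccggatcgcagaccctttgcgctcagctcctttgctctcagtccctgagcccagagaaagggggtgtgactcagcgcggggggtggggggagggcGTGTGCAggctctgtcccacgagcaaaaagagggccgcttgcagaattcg
Mt1: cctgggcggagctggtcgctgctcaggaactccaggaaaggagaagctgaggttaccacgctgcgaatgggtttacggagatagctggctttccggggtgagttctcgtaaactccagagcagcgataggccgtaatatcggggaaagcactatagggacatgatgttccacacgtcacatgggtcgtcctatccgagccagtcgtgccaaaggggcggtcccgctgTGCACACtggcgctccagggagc

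Other stress genes rose in part. Of 19 heat shock proteins, 11 rose and 4 fell (median 0.26, and 0.08 under total-count scaling). The inducible Hsp70 genes Hspa1b and Hspa1a had 54.8, 64.3 and 48.3 and 54.8, 103 and 78.4 counts in untreated cells, and 208, 212 and 242 and 272, 322 and 248 in treated cells (2.02, SE 0.20, and 1.88, SE 0.20). They are near copies, 247 of the 250 bases before their starts being the same, so reads may have been shared between them. The cochaperone Bag3 fell by 0.42. Of 28 genes of the integrated stress and unfolded protein responses, 11 rose and 3 fell (median 0.13, and -0.05 under total-count scaling), among them the amino acid transporter gene Slc7a5 and Ddit3 (CHOP), which rose by 1.06, from 145 to 156 counts to 293 to 342. Of 19 p53 targets, 7 rose and 4 fell, shares of 36.8% and 21.1% against 21.9% and 23.7% of all genes. Under total-count scaling 6 rose and 6 fell. Gadd45a rose by 1.07 and Mdm2 fell by 0.33. Of 18 BCL2 family genes, 6 fell and 3 rose, shares of 33.3% and 16.7% against 23.7% and 21.9% of all genes. Bcl2a1b, a survival gene with near-identical copies, fell from 1177, 1329 and 1353 to 256, 196 and 233.5 counts (-2.49, SE 0.12), Bcl2l1 (BCL-XL) fell by 0.77 and the pro-death genes Bid and Bbc3 rose by 0.40 and 0.34. Under total-count scaling 8 members fell and none rose, and Bbc3 also lost its call without untreated replicate 1 (adjusted p = 0.0507).

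The promoter of Hspa1b, chr17:34959239-34959488 on the minus strand of GRCm38.p6, is shown as that of one of the 12 largest rises. Capitals mark GAANNTTC, paired units of the heat shock element that read the same on both strands. It was found in 6 of the 14 tested heat shock genes with a listed promoter and in 7.73% of all 27025 genes.
Hspa1b: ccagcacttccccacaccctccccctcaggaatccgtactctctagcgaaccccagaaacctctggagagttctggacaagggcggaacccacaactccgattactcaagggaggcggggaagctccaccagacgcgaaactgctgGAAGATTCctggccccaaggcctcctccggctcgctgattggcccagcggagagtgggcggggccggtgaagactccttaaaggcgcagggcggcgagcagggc

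Of 82 cytosolic ribosomal protein genes, 56 rose and 1 fell, by little each (median 0.26). Under total-count scaling 18 rose and 3 fell, with a median of 0.09. Rps2 rose most, from 7561, 7775 and 7744 to 12809, 14442 and 13838 counts (0.83, SE 0.07). Of 35 ribosome biogenesis factors, 11 fell and 7 rose, shares of 31.4% and 20% against 23.7% and 21.9% of all genes. Under total-count scaling 19 of these factors fell and 5 rose. Ncl (nucleolin) rose by 0.76 and Utp20 fell by 1.37. Of 16 snoRNA-host and nuclear long noncoding RNAs, 8 rose and none fell, with a median of 0.56 (0.38 under total-count scaling, where 5 rose). Malat1, a nuclear RNA at sites of active transcription, rose from 72393, 65474.5 and 61187 to 240857.5, 228261 and 209806.5 counts (1.77, SE 0.14), and Neat1, the scaffold of paraspeckles, by 1.08. By length the most abundant RNAs of the 6 libraries were Rpph1, Ftl1, Rmrp, Rn45s and Apoe, of which the structural RNAs Rpph1 (adjusted p = 0.712) and Rmrp (adjusted p = 0.797) did not pass.

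Whether (+)-JQ1 acted on the same genes when cells were given 50 ng/ml LPS in the last 4 h was asked with 6 other libraries from the same 3 animals. No library is shared between these comparisons. The difference of the (+)-JQ1 effect (with LPS minus without) was tested as an interaction, and 5279 of 12727 genes passed (41.5%), of which 2250 were more positive and 3029 more negative with LPS. That split depends on the scaling, since the median of all genes moved from -0.05 to 0.51 and 85.4% of the calls became positive under total-count scaling. With LPS, 8209 of all 14326 genes tested were called (57.3%). Of the 6248 genes called without LPS, 4703 were also called with it (75.3% of the former and 57.3% of the 8209 called with LPS). Of these, 2222 were lower and 1840 higher in both, and 641 went opposite ways.

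The 11 largest falls reported here were all also called lower with LPS, where 57.3% of all genes tested were called in either direction. Cx3cr1 fell less (-2.53, difference 1.94, adjusted p = 1.11e-07). Of the 12 largest rises 11 were also called higher with LPS. Brd2 rose by 1.96 with LPS and 2.01 without (difference -0.05, adjusted p = 0.669, but 0.51 and past the threshold under total-count scaling, which moves the median of all genes as much). Hexim1 had a larger fold change with LPS (3.40, difference 1.23, adjusted p = 1.48e-18). Its untreated mean was 690 normalised counts without LPS and 270 with it, and its treated mean 3103.5 and 2841. Arg2 was the exception, at 0.31 with LPS (adjusted p = 0.555; difference -2.41, adjusted p = 1.19e-05). Opposite directions were found for Mertk, which rose by 0.96 without LPS and fell by 1.00 with it (difference -1.95, adjusted p = 4.65e-47), for Fosl2 (0.81 and -1.66) and for Cebpd (0.87 and -1.14).

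Replication-dependent histones went opposite ways in the conditions. Without LPS 43 of the 67 tested fell and 9 rose, and with LPS 43 rose and 12 fell. The interaction was positive for 49 and negative for 2 of 66 members, against 17.7% and 23.8% of all genes, and their median went from -0.84 to 1.03. Hist1h2ao fell by 2.26 without LPS and stood at 0.19 with it (difference 2.45, adjusted p = 1.63e-21). Its untreated mean was 670 normalised counts without LPS and 152 with it, and its treated mean 140 and 173. The cell cycle genes did not follow, with medians of -1.32 and -1.30 and 6 positive and 5 negative interactions among 40. Of the interferon-stimulated genes, 23 fell with LPS and their median was -1.48. The value without LPS was -1.80 with untreated replicate 1 and -0.94 without it, on either side of that, so no order of the conditions can be given. For Fc gamma receptors the median log2 fold change with (+)-JQ1 was -3.13 with LPS and -1.25 without it, and 4 of 6 interactions were negative.

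**Figure D5:**
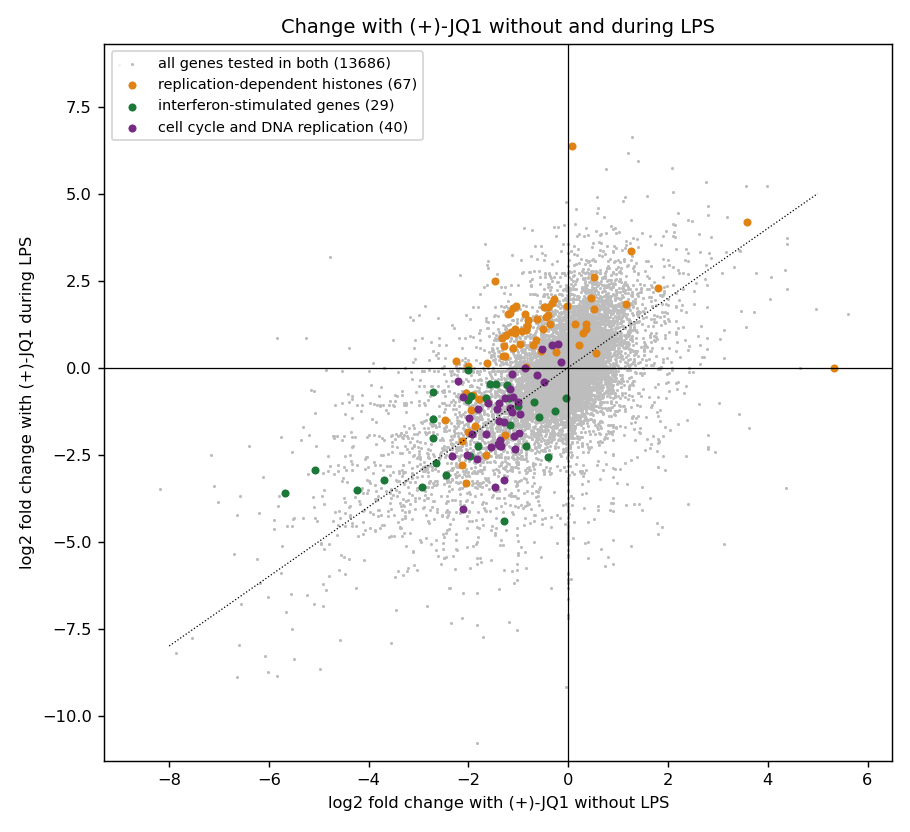
Log2 fold change with (+)-JQ1 without LPS (horizontal axis) and during LPS (vertical axis) for the 13686 genes tested, with 3 gene lists in colour and a dotted line of equal change. Most replication-dependent histones (orange) lie above the line, with a median of -0.84 without and 1.03 during LPS, while cell cycle (purple) and interferon-stimulated genes (green) lie near it, and 1 gene under -9 is drawn at that edge.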

How the data were processed

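Total RNA of BMDM cultures was ribosome-depleted, made into stranded libraries and sequenced as paired reads. The authors removed adapters and artefacts with TagDust, aligned reads to mm9 with STAR and estimated gene levels with RSEM 1.2.31 at its default settings, which do not use strand, so that overlapping, antisense and near-identical genes may have exchanged reads. Each deposited table gives expected counts (not normalised) and TPM (corrected for length and scaled to the same sum in each library) for each gene. Expected counts were rounded to whole numbers and fitted with DESeq2 1.42.0 (R 4.3.3) in a single model of the 18 libraries that held the 6 groups and no covariate, using median-of-ratios scaling, Wald tests and independent filtering, with a threshold of 0.05 on the Benjamini-Hochberg adjusted p. The script was tested on simulated data. No comparison columns of the authors were used.

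Replicate numbers come from the sample titles and were taken to mark cultures of the same animal. Same-numbered libraries of the 2 groups deviated weakly together (correlations of deviations from the group mean 0.153, 0.131 and 0.134 over 11398 genes), so the numbers were treated as pairing the libraries. For replicate 3 a shared animal and a shared lane cannot be told apart. Replicates 1 and 2 of both groups ran on lane 7 and replicate 3 on lane 8, so that lanes are balanced between the groups. No 2 libraries of the same resting group were duplicates. Pairs across groups and the other libraries were not compared.

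The alternatives were a replicate block, edgeR 4.0.16 (quasi-likelihood), TMM and total-count scaling, limma 3.58.1 on log2(TPM + 1), the 6 libraries alone, other filters and leaving out libraries. Genes were named by a rule: the 12 largest rises and falls with a mean of at least 100 normalised counts and 1 direction in all 3 pairs, the tested BET list, Il10, up to 3 members called higher and 3 lower of each other list under the same minimum, and the 5 genes of highest TPM. A few genes that the rule chose are not reported here. The 37 gene lists, the 8 marker lists and the comparison were chosen with earlier results of these data known. Cluster neighbours and markers outside the rule were named after their values were seen. Promoters were taken from RefSeq (GRCm38.p6), a different build from the files' mm9, and only the 250 bases before each start were used. Every SD is over 3 libraries, 1 per animal, and floors cover counting error only.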

Additional observations from a re-analysis of the deposited data

Results flagged for a closer look

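Only the largest rises, the largest falls reported here and the BET and P-TEFb list are covered in this section. Among these, the (+)-JQ1 effect of 20 genes differed between cells with and without LPS. The test was the DESeq2 interaction test over all genes (adjusted p under 0.05). Named genes of other lists, such as Mertk and Fosl2, also passed and are not counted here. Values are log2 fold changes with LPS minus those without. Among the largest rises, the effect was more positive with LPS for Hexim1 (1.23), Cd320 (0.655) and Nt5dc2 (0.292), and less positive for Arg2 (-2.41), Mt2 (-1.7), Larp1b (-1.54), Sesn3 (-1.14) and Hspa1b (-0.996). Among the largest falls, it was more negative for Ccr2 (-3.04), Clec4a1 (-1.94) and Sla (-1.31), and less negative for Cx3cr1 (1.94) and Kcnn4 (0.736). With LPS and (+)-JQ1 the mean was 0 normalised counts for Ccr2 and 5.65 for Sla, at or near the detection limit. The sizes of their differences (SE 1.27 and 0.49) are therefore uncertain. In the BET and P-TEFb list the effect was more positive for Ell (1.61), Brd3 (0.729), Mepce (0.46) and Larp7 (0.451). It was more negative for Ell2 (-0.777), Aff1 (-0.567) and Aff4 (-0.202). The untreated mean of Ell was 408 normalised counts without LPS and 83.4 with it, and its treated mean 529.5 and 333.

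The values for Nt5dc2 and Cd320 did not pass with the replicate block. Those for Ccr2, Sla, Hspa1b, Ell2 and Aff1 did not pass under total-count scaling, and the sign of Aff4 turned under it. Under that scaling the median difference of all genes was 0.509, against -0.045 here, so differences smaller than this depend on the scale.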

How the results depend on the processing

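Of 3420 values of the 190 named genes under alternatives, 3265 kept their direction and side of the threshold, 137 lost their call, 4 gained one and 14 reversed. With the replicate block, which uses the pairing by replicate number, 6347 genes were called. Among the named genes it changed the call of Hsph1 (adjusted p = 0.0507) and no other. edgeR called 6382 and TMM scaling 6222. At more than 2-fold 1908 genes remained past the threshold, 374 higher and 1534 lower. Higher genes numbered 1670 under total-count scaling, 1823 without Rn45s in the total and 1445 by limma on TPM. Leaving out replicates or single libraries gave 4050 to 5842 calls (1889 to 2793 higher, 2161 to 3049 lower); the lowest came without replicate 1, a fit with 2 libraries per group. For the difference of the effect with and without LPS, leaving out replicates gave 3471 (without replicate 1) to 3929 calls (1288 to 1544 more positive, 2183 to 2385 more negative), and total-count scaling gave 5964 more positive and 1023 more negative. Some signs reversed. Brd3 went to -0.132, -0.109 and -0.151, Aff1 to -0.12, -0.0974 and -0.139 and Rpph1 to -0.0463, -0.0246 and -0.0329 under total-count scaling, that without Rn45s and limma. Cdk9 went to -0.00271 by limma, Aff1 ranged from -0.0271 to 0.184 when replicates or libraries were left out (negative without replicate 3, and -0.0108 without untreated replicate 3), and Rmrp from -0.198 to 0.045 (positive without untreated replicate 2, and 0.00308 without replicate 3). The difference for Brd2 went to 0.0783 (TMM), 0.505 (total counts, adjusted p = 2.34e-13) and 0.0556 (edgeR), and that for Aff4, which had passed at -0.202, to 0.351 (total counts, adjusted p = 0.00033), past the threshold the other way. Causes were not tested. With 3 animals a group and no spike-in, small changes of low genes and absolute RNA amounts are beyond these data.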

Other observations

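Lower calls were spread over weakly and strongly expressed genes unlike higher ones. With the tested genes divided by mean normalised count into 5 equal groups, the second lowest (13.3 to 105 counts) held 11.8% higher and 34.5% lower genes, and the highest (from 782 counts) held 39.4% higher and 22.7% lower. The median log2 fold change went from -0.34 in the lowest group to 0.10 in the highest. Precision also differs between these groups, and its part was not tested.

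The largest fitted fall of all was that of Eif3j1, a subunit gene of initiation factor eIF3, at -24.3 (adjusted p = 1.09e-05), a gene picked out for that value. With treated libraries below 1 count, the fitted size is not a bound. Its expected counts were 333, 0 and 427 in untreated and 0.15, 0.1 and 0.11 in treated cells. Its near-identical copy Eif3j2 had 0.66, 149 and 10.2 in untreated and 430, 291 and 380 in treated cells. Together the copies had 268 ± 22.2 normalised counts in untreated and 336 ± 43.9 in treated cells (SD, n = 3).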
